A study of Mus musculus with 16 samples.

Results

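The 38 genes described here make up the antioxidant and glutathione system of mouse lung fibroblasts, with the oxidant sources Nox4 and Aox1 and 4 enzymes of the pentose phosphate route. They were taken from a fixed list of gene symbols, and all 38 were found among the 22902 genes that had a named probe. RNA was measured on 16 one-colour Agilent arrays, 4 for each of 4 groups. Wild type C57BL/6J mice or Meflin knockout mice, all 8-week-old females, gave primary lung fibroblasts by enzymatic digestion. Cells of each genotype received vehicle or recombinant TGF-β1, the cytokine that turns fibroblasts into matrix-producing myofibroblasts, at 5 ng/ml for 48 h. The design text speaks of independent experiments in each group, and the labels do not say which mice a culture came from. They name the mice as Meflin knockout without describing the allele.

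Cells handle reactive oxygen in successive steps. Superoxide dismutases turn superoxide into hydrogen peroxide, and catalase, the peroxiredoxins and the glutathione peroxidases reduce the peroxide. Thioredoxin and glutathione supply the electrons, which come from NADPH made largely by the pentose phosphate route, and glutathione transferases attach glutathione to reactive lipids and foreign compounds. Many of these genes are targets of the transcription factor NRF2 (Nfe2l2), whose protein KEAP1 holds at a low level until oxidants or electrophiles inactivate KEAP1, and which binds the antioxidant response element together with a small Maf protein. In lung fibroblasts the hydrogen peroxide-producing oxidase NOX4 is a known TGF-β1 target, and the balance of NOX4 against NRF2 has been studied in lung fibrosis.

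All 38 genes were measured well above background on all 16 arrays. Levels are given as log2 signal after each array was scaled to the same 75th percentile, so that 1 unit is a doubling, and values of an array series are listed in the order of replicates 1 to 4. A level belongs to a probe and cannot be set against that of another gene. No array stood apart: the lowest correlation between replicates was 0.996, and the SD of a gene over 4 replicates had a median between 0.07 and 0.09. Islr, which encodes meflin, averaged 10.82 ± 0.06 (SD, n = 4) in wild type cells with vehicle and 8.34 ± 0.08 with TGF-β1. None of the 8 knockout arrays showed its probe well above background, and bounds on its deficit were at least 138-fold in vehicle cultures (adjusted p = 1.6e-19) and at least 19.7-fold in treated ones (adjusted p = 6.33e-18). These bounds set the wild type mean against the lowest signal that counted as above background on each knockout array; whether that 1 probe lies in the deleted part is not given.

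Start-site sequences are shown first, because the NRF2 binding element is the feature by which many of these genes are usually grouped. RefSeq promoter windows of the build GRCm38.p6, 250 bases before to 50 after the start of transcription, were at hand for 32 of the 38 genes. The core TGACNNNGC was searched on both strands. It was found in 10 of those 32 genes (31.25%), against 13.99% of all 27025 genes with a window and 12.4% of all windows of this length. Shown are the 5 of those 10 genes with the largest TGF-β1 response in either genotype, each 5′ to 3′ on the strand of the gene, with the match in capitals. For all but Nfe2l2 the core reads on the opposite strand, so the capitals print its reverse complement.
Mgst1, chr6:138140445-138140505, plus strand: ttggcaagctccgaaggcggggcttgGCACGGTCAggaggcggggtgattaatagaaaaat
Srxn1, chr2:152105542-152105570, plus strand: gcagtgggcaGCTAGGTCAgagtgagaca
Txnrd1, chr10:82859088-82859148, plus strand: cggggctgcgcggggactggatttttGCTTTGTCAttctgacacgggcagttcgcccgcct
Nfe2l2, chr2:75704869-75704913, minus strand: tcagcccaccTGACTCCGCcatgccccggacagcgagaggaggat
Prdx1, chr4:116685440-116685500, plus strand: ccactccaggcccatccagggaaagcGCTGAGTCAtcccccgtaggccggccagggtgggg

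Relative to the start site, these matches spanned positions -56 to -48 in Mgst1, 29 to 37 in Srxn1, -92 to -84 in Txnrd1, -240 to -232 in Nfe2l2 and -133 to -125 in Prdx1. Mgst1 has 2 promoter windows and Txnrd1 has 3, and the core was found in a single window of each. The other genes with a match were Gclm, G6pdx, Pgd, Gstm5 and Sod1. The 10 genes did not respond alike: with TGF-β1 in knockout cells Mgst1 fell by 2.57 log2 units and Srxn1 by 0.66, Txnrd1 rose by 0.58, and Sod1 differed by 0.10 with an adjusted p of 0.0887. A match describes these letters only and is not evidence of binding.

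The first comparison asked how TGF-β1 changed the system in wild type fibroblasts. With TGF-β1, 10 of the 38 genes were higher, 19 were lower and 9 did not pass the test (limma, Benjamini-Hochberg adjusted p under 0.05 over 15390 genes). Among all genes tested, 41.3% were higher and 27.3% lower, 68.6% in either direction. Gstm1, Aox1 and Gstt1 fell by at least 1 log2 unit, and no member rose by as much; 9.71% of all genes changed by that size in either direction. The median difference was -0.06 over the 38 genes and 0.08 over all genes. Groups did not overlap for 29 of the 38 genes, against 62.9% of all genes. Within slide 1, which carried replicates 1 and 2 of every group, 8 genes were higher and 16 lower, and within slide 2 the counts were 12 and 18.

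More members passed the test in knockout fibroblasts. There 15 genes were higher, 18 lower and 5 not called, against 46.6% higher, 35.9% lower and 82.5% in either direction among all genes. Rises of at least 1 log2 unit were seen for Nox4, Prdx6 and Gsto1, and falls of that size for Gstt1, Gstm1, Aox1, Mgst1, Sod3, Gsta4, Sod2 and Cat; 23.1% of all genes passed that size. The median difference was 0.01 over the members and 0.10 over all genes, and 30 of the 38 genes did not overlap between groups (77.1% of all genes). Slide 1 gave 13 higher and 18 lower, and slide 2 gave 17 and 16. The 2 genotypes each had their own vehicle cultures. Under this scaling, 8 genes rose in both genotypes (Prdx4, Prdx6, Gpx1, Gpx4, Gpx7, Gpx8, Gsto1 and Nox4) and 15 fell in both. Txn1, Pgd and Taldo1 fell in wild type cells and rose in knockout cells. How many of all genes moved alike or oppositely in the 2 genotypes was not counted, so no share stands beside these numbers. With the quantile normalization described next, Gpx4 in knockout cells (0.00) and Gsto1 in wild type cells (0.02) were not called.

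Part of the rises depended on how the arrays were scaled. Bright genes as a whole shifted upward with TGF-β1 after scaling to the 75th percentile: in knockout cells the median difference was 0.43 over the 844 genes brighter than 14 log2 units and 0.31 over the 2351 genes between 12 and 14. Quantile normalization, which forces all arrays to one distribution, turned these medians to -0.10 and -0.04. Of the 38 members, 15 lie between 12 and 14 and 10 lie above 14. With quantile normalization 7 members were higher and 25 lower in wild type cells, and 9 were higher and 27 lower in knockout cells, with member medians of -0.30 and -0.29. At that scaling 35.0% of all genes were higher and 32.2% lower in wild type cells, and 39.7% higher and 41.9% lower in knockout cells, with medians of 0.02 and -0.01. All 19 falls of wild type cells and all 18 of knockout cells were called under both scalings. Rises called under both were those of Prdx4, Prdx6, Gpx1, Gpx4, Gpx7, Gpx8 and Nox4 in wild type cells, and of Txnrd1, Prdx4, Prdx6, Gpx1, Gpx3, Gpx7, Gpx8, Gsto1 and Nox4 in knockout cells.

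**Figure D1:**
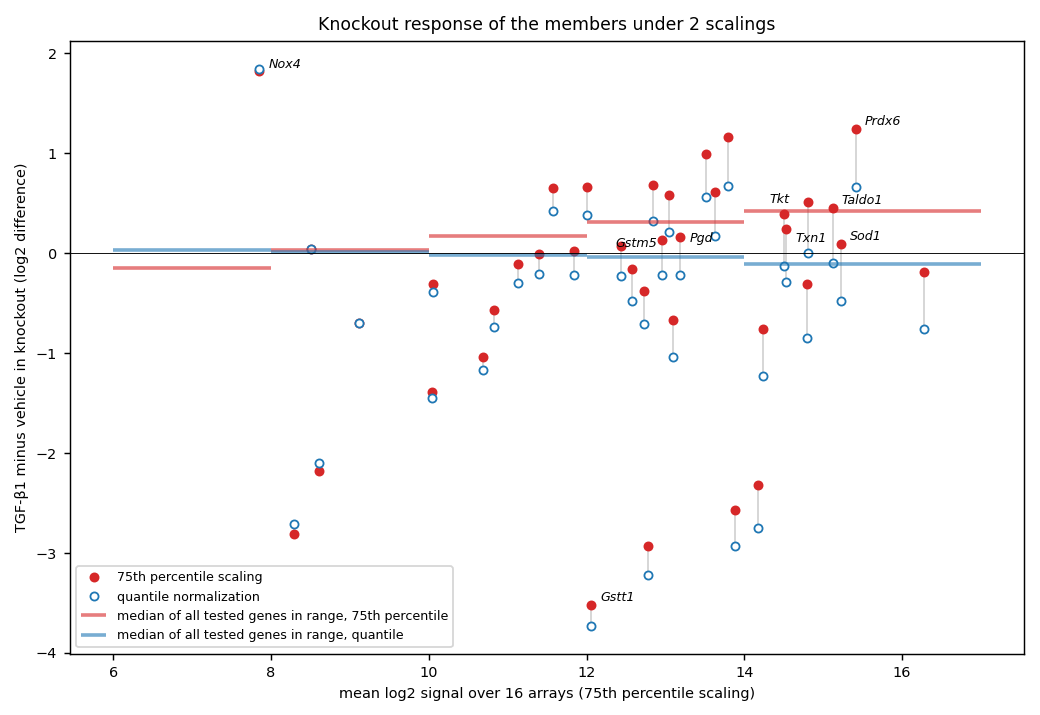
TGF-β1 minus vehicle in knockout fibroblasts (log2 difference, vertical axis) against the mean log2 signal over 16 arrays (horizontal axis) for the 38 members, with 75th percentile scaling (filled) and quantile normalization (open) joined by a line, and coloured bars for the median of all tested genes in each range of signal. Members above 12 move down under quantile normalization, which turns Txn1, Gstm5, Pgd, Taldo1, Tkt, Sod1 and Gsr below 0, and so does Gclm just under 12, while Nox4, Prdx6 and Gstt1 keep their direction.

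Signals of other cell types moved with the same comparisons. Macrophage and leukocyte markers summed to scaled intensities of 242036 to 278709 per array in wild type cells with vehicle and 141090 to 150154 with TGF-β1; in knockout cells the sums were 209681 to 219223 and 106589 to 118100. Of the 16 markers, 14 fell with TGF-β1 in wild type cells and 15 in knockout cells, and none lacked signal above background in any group. All 10 endothelial markers fell in both genotypes, with sums of 10757 to 11176 and 6121 to 6615 in wild type cells, and of 10036 to 10330 and 4361 to 4834 in knockout cells. Mesothelial markers summed to 26111 to 26570 in knockout cells with vehicle and to 12601 to 14445 with TGF-β1, with 5 of 6 lower, and in wild type cells to 28868 to 30546 and 25619 to 26672, with 3 of 6 lower. Fibroblast markers summed to between 406450 and 531578 in every group, and single markers went both ways with TGF-β1: 5 of 10 rose and 5 fell in wild type cells, and 4 rose and 6 fell in knockout cells, with medians of -0.08 and -1.03. Of 9 pericyte and smooth muscle markers 4 rose and 3 fell in wild type cells, and 5 rose and 3 fell in knockout cells. Epithelial markers summed to 7478 to 8152 and 10232 to 11007 in wild type cells without and with TGF-β1, and to 6641 to 6869 and 10538 to 11694 in knockout cells. Of the 8 epithelial markers tested, 3 rose and 4 fell in wild type cells and 3 rose and 3 fell in knockout cells. Their differences ran from -4.80 to 0.98 in wild type cells and from -6.27 to 0.94 in knockout cells. Of the 11 listed, 2 lacked signal above background on every array of each vehicle group. With TGF-β1, 4 lacked it in wild type cells and 7 in knockout cells. The lung epithelial genes Sftpa1 and Nkx2-1 were not well above background on any array. The part of these cells in the members' differences was not tested, and in bulk RNA fewer cells of a type and less RNA per cell cannot be told apart.

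Glutathione transferases held the largest differences. In wild type cells 6 of the 10 transferases fell and 2 rose with TGF-β1, and in knockout cells 7 fell and 2 rose, where 27.3% and 35.9% of all genes fell and 41.3% and 46.6% rose. Quantile normalization gave 7 lower and 0 higher in wild type cells, and 9 lower and 1 higher in knockout cells. The shares of all genes at that scaling were 32.2% lower and 35.0% higher in wild type cells, and 41.9% and 39.7% in knockout cells. Gstt1, a theta-class enzyme that acts on small halogenated compounds, read 13.21, 13.23, 13.21 and 13.19 in wild type cells with vehicle and 11.76, 11.79, 11.84 and 11.82 with TGF-β1. In knockout cells it read 13.33, 13.37, 13.39 and 13.42 with vehicle and 9.75, 9.94, 9.70 and 10.04 with TGF-β1. The 4 knockout arrays with TGF-β1 were the lowest of all 16, and no treated array overlapped its vehicle group. The fall was 2.65-fold in wild type cells (log2 -1.41, SE 0.06, adjusted p = 2.7e-11) and 11.5-fold in knockout cells (log2 -3.52, SE 0.06, adjusted p = 2.18e-16). The difference between the responses, called the interaction below and taken as knockout minus wild type, was -2.11 (SE 0.08, adjusted p = 3.18e-11).

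Gstm1, a mu-class transferase, started from 14.14, 14.10, 14.16 and 14.11 in wild type cells with vehicle and reached 12.09, 12.26, 12.22 and 12.20 with TGF-β1. The knockout arrays read 13.91, 13.80, 13.93 and 13.86 with vehicle and 10.80, 11.05, 11.001 and 10.92 with TGF-β1. The 4 groups were separate from one another. Gstm1 fell 3.83-fold in wild type cells and 7.64-fold in knockout cells, and its interaction was -0.995 (SE 0.07, adjusted p = 2.98e-08). The mu-class genes lie in one cluster and resemble each other in sequence, so probes may share signal between them. A dimmer Gstm1 probe gave close values, -1.92 and -2.84 for the responses in wild type and knockout cells. Gstm2 fell by 0.29 and 0.76 (-0.55 and -1.23 with quantile normalization), and Gstm5 differed by 0.04 in wild type cells without passing the test and rose by 0.14 in knockout cells, a call lost when both its probes were averaged (adjusted p = 0.0643) and turned to -0.21 by quantile normalization.

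The 3 microsomal transferases, membrane enzymes of which Mgst1 also reduces lipid hydroperoxides, all fell in knockout cells. Mgst1 read 14.80, 14.61, 14.67 and 14.69 in wild type cells with vehicle and 14.03, 14.05, 14.04 and 14.10 with TGF-β1. Knockout cells gave 14.66, 14.66, 14.70 and 14.69 with vehicle and 12.06, 12.12, 12.12 and 12.14 with TGF-β1. The vehicle groups of both genotypes overlapped and the treated groups lay about 2 units apart. The fall was 1.56-fold in wild type cells (log2 -0.64) and 5.94-fold in knockout cells (log2 -2.57, SE 0.04, adjusted p = 7.31e-17), with an interaction of -1.93 (SE 0.05, adjusted p = 1.24e-12). Mgst2 did not pass the test in wild type cells (0.02) and fell by 0.31 in knockout cells, and Mgst3 fell by 0.27 and 0.70.

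Gsta4, the alpha-class transferase best known for conjugating the lipid peroxidation product 4-hydroxynonenal, gave 9.45, 9.41, 9.40 and 9.45 with vehicle and 8.53, 8.48, 8.42 and 8.39 with TGF-β1 in wild type cells. The corresponding knockout values were 9.40, 9.43, 9.36 and 9.31, then 7.17, 7.17, 7.19 and 7.27. Vehicle groups overlapped and TGF-β1 groups did not. Its fall was 1.97-fold in wild type cells and 4.51-fold in knockout cells, with an interaction of -1.20 (SE 0.06, adjusted p = 1.77e-10). Gsto1, an omega-class enzyme with thioltransferase activity, was the transferase that rose most. It read 13.47, 13.48, 13.51 and 13.52, then 13.64, 13.70, 13.75 and 13.78 in wild type cells, and 13.39, 13.39, 13.42 and 13.36, then 14.56, 14.50, 14.65 and 14.50 in knockout cells. All 4 knockout arrays with TGF-β1 lay above every other array. The rise was 1.17-fold in wild type cells, where quantile normalization left 0.02 (adjusted p = 0.599), and 2.23-fold in knockout cells, where it left 0.68. Gstp1, the pi-class enzyme, rose by 0.15 in wild type cells, a call that quantile normalization removed (adjusted p = 0.399), and was at -0.01 in knockout cells, where quantile normalization called it lower (-0.21, adjusted p = 0.00116).

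Dismutases and catalase fell, except Sod1. Of these 4 genes, 3 fell in each genotype, against 27.3% of all genes in wild type and 35.9% in knockout cells. Under quantile normalization all 4 fell, with Sod1 at -0.30 and -0.48, against 32.2% and 41.9% of all genes. Sod3, the extracellular dismutase that is abundant in lung matrix, read 14.91, 14.89, 14.95 and 14.84 with vehicle and 14.02, 14.11, 14.11 and 14.11 with TGF-β1 in wild type cells. In knockout cells the values were 14.97, 15.01, 15.07 and 15.04 with vehicle and 12.63, 12.85, 12.64 and 12.71 with TGF-β1. The treated knockout arrays were more than 1 unit under all the others. Sod3 fell 1.76-fold in wild type cells and 4.98-fold in knockout cells (log2 -2.31, SE 0.05, adjusted p = 1.43e-15), with an interaction of -1.50 (SE 0.07, adjusted p = 9.66e-11).

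The mitochondrial dismutase Sod2 read 10.39, 10.33, 10.42 and 10.53 with vehicle and 9.91, 9.87, 9.89 and 10.0001 with TGF-β1 in wild type cells. Knockout arrays gave 10.50, 10.66, 10.62 and 10.66, then 9.18, 9.30, 9.21 and 9.20. Treated and vehicle arrays were separate in each genotype. The fall was 1.41-fold in wild type and 2.61-fold in knockout cells, with an interaction of -0.89 (SE 0.07, adjusted p = 6.72e-08). Catalase (Cat), which breaks down hydrogen peroxide in peroxisomes, went from 11.28, 11.29, 11.23 and 11.20 to 10.33, 10.29, 10.17 and 10.32 in wild type cells, and from 11.21, 11.18, 11.11 and 10.98 to 10.16, 10.07, 10.04 and 10.07 in knockout cells. Its falls of 1.96-fold and 2.05-fold were much alike, and the interaction of -0.07 (SE 0.07, adjusted p = 0.448) did not pass the test.

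**Figure D2:**
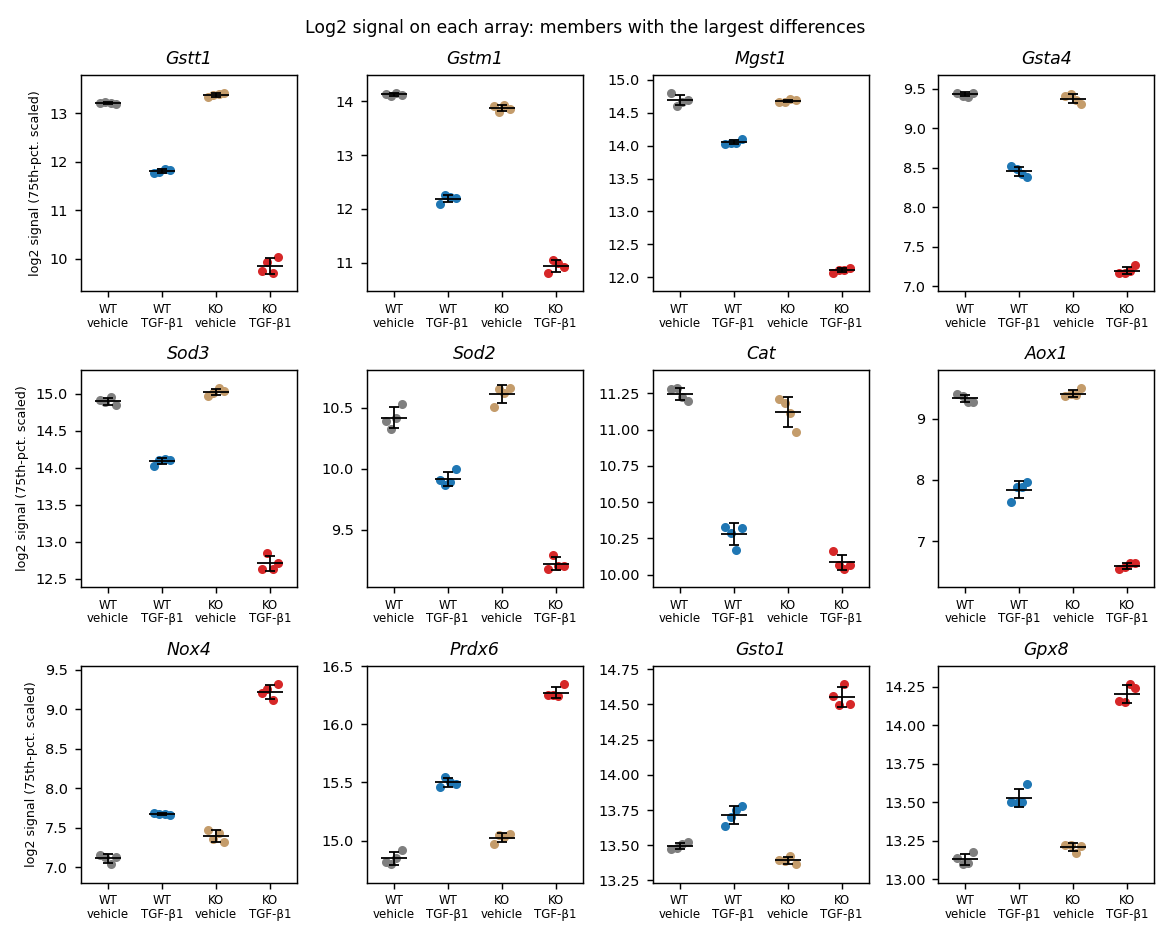
Log2 signal on each of the 16 arrays (points), with the group mean and SD (bars, n = 4), for 12 members with large differences, each panel on its own vertical axis and groups along the horizontal axis. Treated knockout arrays (red) are the lowest for Gstt1, Gstm1, Mgst1, Gsta4, Sod3, Sod2 and Aox1 and the highest for Nox4, Prdx6, Gsto1 and Gpx8.

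The 2 oxidant sources moved in opposite directions. Nox4, whose product makes hydrogen peroxide without needing an activating stimulus, read 7.15, 7.14, 7.04 and 7.13 in wild type cells with vehicle and 7.68, 7.68, 7.68 and 7.66 with TGF-β1. Knockout arrays read 7.48, 7.36, 7.43 and 7.32 with vehicle and 9.20, 9.25, 9.11 and 9.32 with TGF-β1. The 4 groups did not overlap. The rise was 1.48-fold in wild type cells (log2 0.56, SE 0.05, adjusted p = 5.22e-08) and 3.54-fold in knockout cells (log2 1.82, SE 0.05, adjusted p = 1.9e-14), and the interaction was 1.26 (SE 0.07, adjusted p = 6.68e-10). A dimmer probe of Nox4 gave 1.52 in knockout cells but 0.08 in wild type cells, so the probes disagree on the size of the wild type response. Quantile normalization changed little here, with 0.63 and 1.85. Normexp background correction gave smaller rises of this dim gene, 0.42 and 1.53.

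Aox1, aldehyde oxidase, releases superoxide and hydrogen peroxide as by-products of its reaction. Wild type arrays read 9.40, 9.37, 9.27 and 9.28 with vehicle and 7.64, 7.88, 7.88 and 7.96 with TGF-β1. Knockout arrays read 9.36, 9.40, 9.38 and 9.50, then 6.55, 6.58, 6.64 and 6.65. Vehicle groups overlapped, and the treated knockout arrays were the lowest. Aox1 fell 2.81-fold in wild type and 6.99-fold in knockout cells, with an interaction of -1.32 (SE 0.09, adjusted p = 7.21e-09).

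The glutathione peroxidases stood on the other side. With TGF-β1, 4 of the 5 rose in wild type cells and all 5 in knockout cells, and none fell. Among all genes 41.3% and 46.6% rose. Quantile normalization kept 4 rises in each genotype, against 35.0% and 39.7% of all genes. It left Gpx3 at -0.06 in wild type and Gpx4 at 0.00 in knockout cells, neither called. Gpx8, a peroxidase of the endoplasmic reticulum, averaged 13.13 and 13.53 in wild type cells without and with TGF-β1, and 13.21 and 14.20 in knockout cells. Its range with TGF-β1 in knockout cells, 14.15 to 14.27, lay above all other arrays. The rise of 1.99-fold in knockout cells was larger than the 1.32-fold rise in wild type cells (interaction 0.60, SE 0.05, adjusted p = 2.71e-07). Gpx7, also of the endoplasmic reticulum, rose by 0.58 and 0.66, the cytosolic Gpx1 by 0.58 and 0.61, and Gpx4, which reduces phospholipid hydroperoxides, by 0.43 and 0.51 under 75th percentile scaling. None of these 3 had an interaction past the threshold. With quantile normalization Gpx1 rose by 0.37 and 0.18, with a negative interaction (-0.19, adjusted p = 0.00768), and Gpx4 by 0.14 in wild type cells; the rises of Gpx8 were 0.21 and 0.57. Gpx3, the secreted peroxidase, differed by 0.07 in wild type cells (adjusted p = 0.385) and rose by 0.66 in knockout cells, with an interaction of 0.59.

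**Figure D3:**
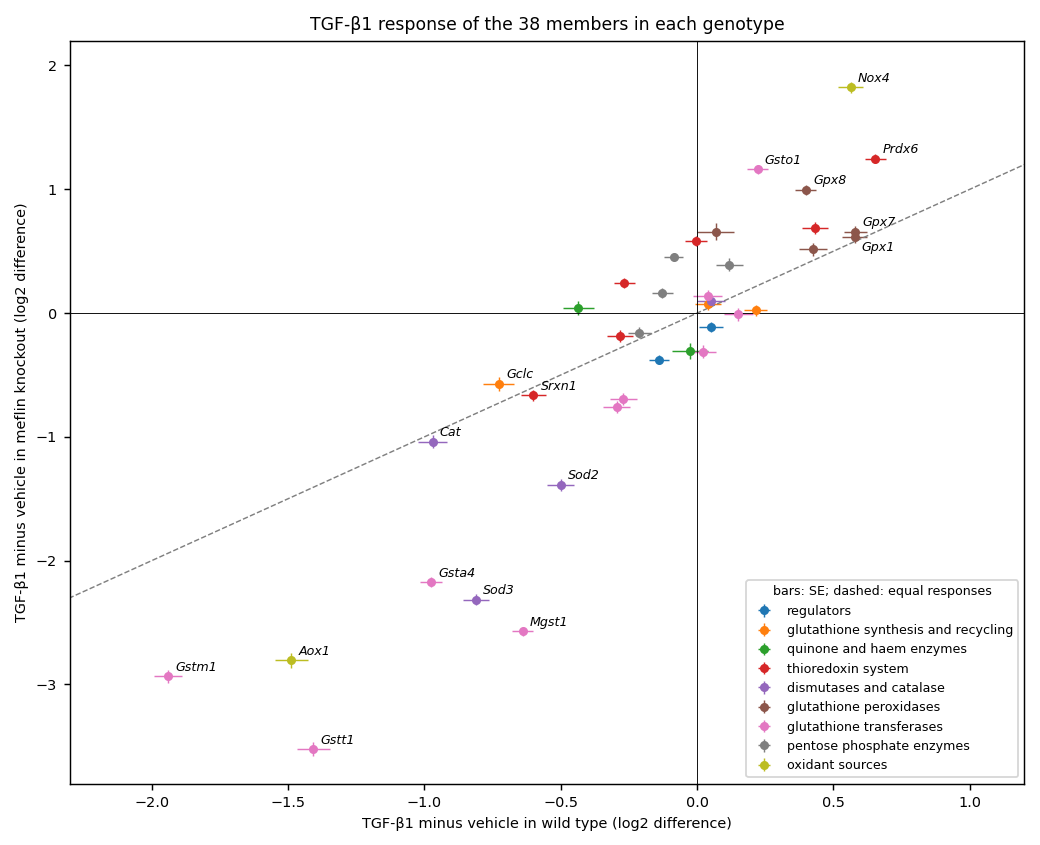
TGF-β1 minus vehicle in knockout cells (log2 difference, vertical axis) against the same in wild type cells (horizontal axis) for the 38 members, coloured by role, with SE bars and a dashed line of equal responses. Gsta4, Gstm1, Mgst1, Sod2, Sod3 and Aox1 lie below the line on the lower left, as does Gstt1 at -1.41 and -3.52, and Nox4, Prdx6 and the transferase Gsto1 lie above it on the upper right.

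In the thioredoxin system the members went separate ways. Prdx6, a peroxiredoxin that reduces phospholipid hydroperoxides and is prominent in lung, read 14.82, 14.79, 14.85 and 14.92 with vehicle and 15.47, 15.55, 15.50 and 15.49 with TGF-β1 in wild type cells. Knockout cells gave 14.97, 15.05, 15.03 and 15.05, then 16.25, 16.25, 16.24 and 16.35. The 4 groups were separate. It rose 1.57-fold and 2.38-fold, with an interaction of 0.59 (SE 0.05, adjusted p = 2.15e-07); a dimmer probe gave larger rises, 1.02 and 1.97 log2 units. Prdx4, the peroxiredoxin of the endoplasmic reticulum, rose by 0.43 and 0.69. With quantile normalization the rises were 0.32 and 0.66 for Prdx6 and 0.28 and 0.33 for Prdx4. Prdx1, which is cytosolic, fell by 0.28 and 0.18 (quantile normalization -0.60 and -0.75). Dimmer Prdx1 probes gave -0.40 and -0.57 in wild type cells and -0.27 and -0.26 in knockout cells. The dimmest had an interaction of 0.31, against 0.10 for the probe used, and a vehicle difference between genotypes of -0.30, against -0.04. Srxn1, the sulfiredoxin that restores overoxidised peroxiredoxins, fell by 0.60 and 0.66. With quantile normalization it fell by 0.80 and 1.03, and its interaction of -0.23 was also called.

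Thioredoxin itself (Txn1) fell by 0.27 in wild type cells, from a mean of 14.63 to 14.36, and rose by 0.24 in knockout cells, from 14.44 to 14.68. Under quantile normalization Txn1 fell in both, by 0.52 and 0.28, so the direction in knockout cells depends on the scaling. Its reductase Txnrd1 stayed at a mean of 12.92 in wild type cells with and without TGF-β1 (log2 difference -0.00, adjusted p = 0.942) and rose in knockout cells from a range of 12.84 to 12.94 to one of 13.43 to 13.50 (log2 0.58, adjusted p = 2.93e-09). Quantile normalization gave -0.18 and 0.21. A dimmer Txnrd1 probe gave 0.16 in wild type cells and 0.58 in knockout cells, with an interaction of 0.42, so the probes differ on the wild type response. The interactions of Txn1 (0.51) and Txnrd1 (0.59) passed the test under both scalings.

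Neither regulator differed by 1 log2 unit in any comparison under these scalings. Nfe2l2, encoding NRF2, read 12.81, 12.80, 12.91 and 12.88 in wild type cells with vehicle and 12.74, 12.75, 12.68 and 12.68 with TGF-β1. In knockout cells it read 12.89, 12.92, 12.85 and 12.81, then 12.45, 12.50, 12.52 and 12.49. Treated arrays were lower than vehicle arrays in both genotypes without overlap. The falls were 0.14 (SE 0.04, adjusted p = 0.00306) and 0.38 (SE 0.04, adjusted p = 1.1e-07), and the interaction was -0.24 (adjusted p = 0.000978). Quantile normalization gave larger falls of Nfe2l2, -0.32 and -0.71, with an interaction of -0.39. On slide 1 alone the wild type fall was not called (-0.06, adjusted p = 0.34), nor was the interaction on slide 2 alone (-0.11, adjusted p = 0.151). Keap1, its inhibitor, gave 11.13, 11.10, 11.11 and 11.04, then 11.12, 11.17, 11.14 and 11.14 in wild type cells, and 11.27, 11.22, 11.24 and 11.06, then 11.05, 11.05, 11.13 and 11.11 in knockout cells. Its groups overlapped in both genotypes. The fall of 0.11 in knockout cells (adjusted p = 0.0248) and the interaction of -0.16 (adjusted p = 0.0311) were lost when any of 5 or 7 of the 16 arrays was left out, with adjusted p up to 0.0804 and 0.063; without knockout vehicle replicate 1, for example, neither was called. With quantile normalization Keap1 fell by 0.30 in knockout cells (adjusted p = 2.54e-05), and its interaction was -0.26.

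Among the classical NRF2 target enzymes, directions were mixed. Nqo1, the quinone reductase, read 8.61, 8.64, 8.50 and 8.43 with vehicle and 8.01, 8.18, 8.10 and 8.15 with TGF-β1 in wild type cells, and 8.66, 8.77, 8.63 and 8.62, then 8.70, 8.61, 8.76 and 8.78 in knockout cells. Only the treated wild type arrays were low. The fall of 1.35-fold in wild type cells passed the test (log2 -0.44, SE 0.06, adjusted p = 6.81e-06), the knockout difference of 0.04 did not (adjusted p = 0.515), and the interaction was 0.48 (SE 0.08, adjusted p = 0.000127). Hmox1, haem oxygenase 1, read 14.84, 14.66, 14.97 and 15.01, then 14.72, 14.92, 14.83 and 14.90 in wild type cells, and 14.82, 14.95, 14.91 and 14.89, then 14.56, 14.57, 14.61 and 14.61 in knockout cells. Here the treated knockout arrays were low. Hmox1 fell by 0.31 in knockout cells (adjusted p = 0.000576) and differed by -0.02 in wild type cells (adjusted p = 0.758), where quantile normalization gave -0.32 (adjusted p = 0.000106); in knockout cells it gave -0.85. Its interaction was -0.28 (SE 0.09, adjusted p = 0.0185), opposite in sign to that of Nqo1.

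Glutathione synthesis split between its subunits. Gclc, the catalytic subunit of the rate-limiting ligase, fell in wild type cells from 11.16 ± 0.07 to 10.44 ± 0.05 and in knockout cells from 11.15 ± 0.13 to 10.58 ± 0.03 (SD, n = 4). These falls of 0.73 and 0.57 passed the test, and their difference of 0.16 did not (adjusted p = 0.109). Gclm, the modifier subunit, rose by 0.22 in wild type cells, where quantile normalization left 0.09 (adjusted p = 0.0525), and differed by 0.02 in knockout cells, where quantile normalization called it lower (-0.22, adjusted p = 0.00017). Gsr, glutathione reductase, did not pass the test in either genotype, at 0.04 and 0.08, but was called lower in both with quantile normalization, at -0.11 (adjusted p = 0.0341) and -0.23 (adjusted p = 0.000263).

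**Figure D4:**
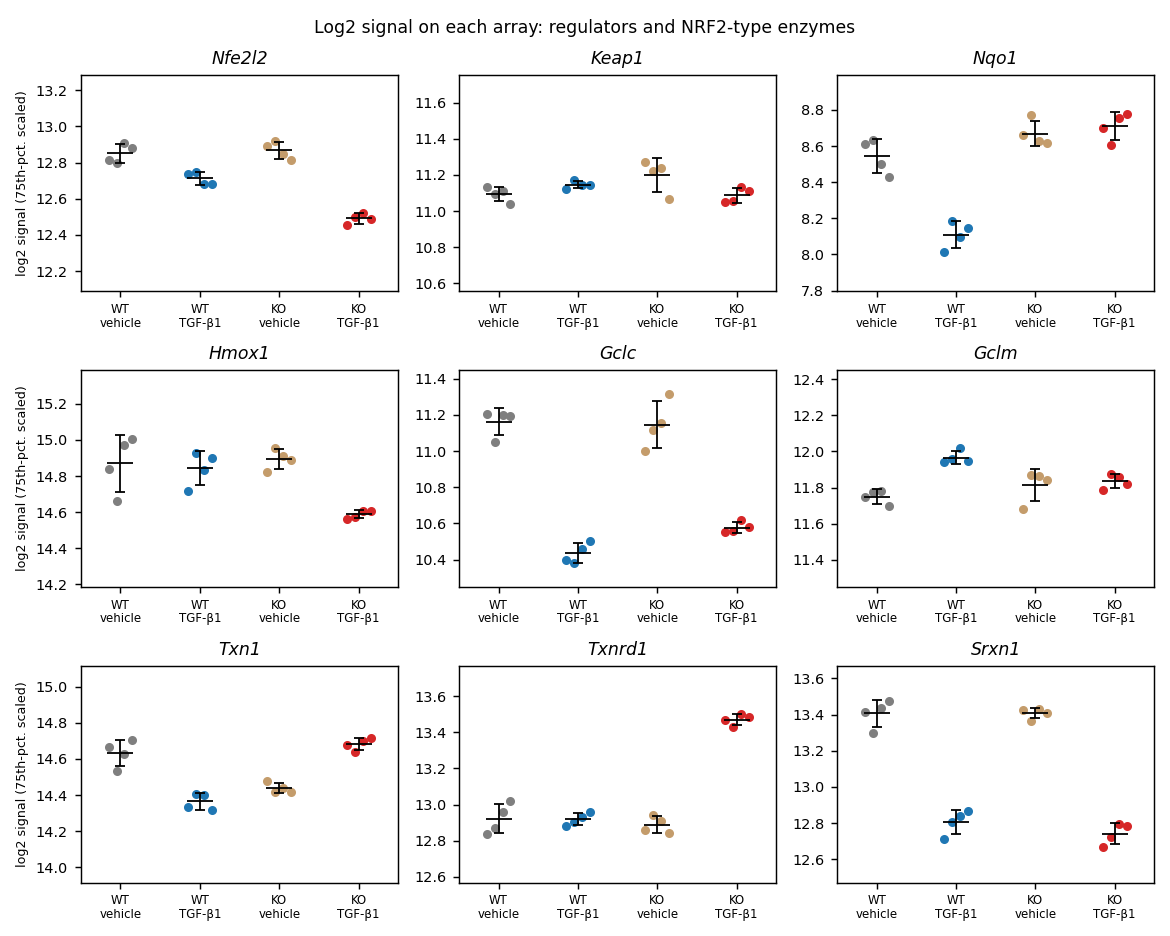
Log2 signal on each array (points), with group mean and SD (bars, n = 4), for the regulators Nfe2l2 and Keap1 and 7 enzymes often counted as NRF2 targets (vertical axis, 1 range per panel) by group (horizontal axis). Nqo1 is low in treated wild type arrays alone, Hmox1 and Nfe2l2 are lowest in treated knockout arrays, Gclc and Srxn1 are low in both treated groups, and Txnrd1 is high in treated knockout arrays.

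The direction of 3 of the 4 pentose phosphate enzymes in knockout cells depended on the scaling. In wild type cells G6pdx, the entry enzyme, fell by 0.21, Pgd by 0.13 and Taldo1 by 0.09 (adjusted p = 0.0395, lost without any of 5 arrays), and Tkt differed by 0.12 (adjusted p = 0.0507). In knockout cells G6pdx fell by 0.16, while Pgd, Taldo1 and Tkt, enzymes of the later steps, rose by 0.16, 0.45 and 0.39. Quantile normalization turned those 3 rises into falls of 0.21, 0.10 and 0.13, so that all 4 enzymes were lower in both genotypes. At that scaling 32.2% of all genes were lower in wild type and 41.9% in knockout cells. The interaction of Taldo1, 0.54, was called under both scalings, and those of Pgd (0.29) and Tkt (0.27) were called only with 75th percentile scaling, the values with quantile normalization being 0.09 and 0.00.

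The next comparison set knockout against wild type cells that had received vehicle. Few members differed and none by 1 log2 unit: 3 were higher, 4 lower and 31 not called, where 7.08% of all genes were higher, 6.16% lower and 13.2% in either direction. Nox4 was higher by 0.28 (SE 0.05, adjusted p = 0.000949), Sod2 by 0.19 and Prdx6 by 0.18. Mgst2 was lower by 0.29 (SE 0.05, adjusted p = 0.00132), Gstm1 by 0.25, Txn1 by 0.19 and Taldo1 by 0.17. Arrays did not overlap between genotypes for 13 of the 38 genes, against 18.8% of all genes. No member was called on slide 1 alone, and slide 2 alone gave 1 higher and 4 lower. The call for Sod2 was lost without any one of knockout vehicle replicates 2, 3 and 4 or wild type vehicle replicate 2 (adjusted p up to 0.061). For Nox4 the dimmer probe gave 0.05. In these cultures 7 of the 16 macrophage markers were lower in knockout cells, and their part in the differences was not tested.

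With TGF-β1 the genotypes stood far apart. Of the 38 genes 16 were higher in knockout cells, 15 lower and 7 not called, against 39.6% higher, 30.5% lower and 70.1% in either direction among all genes. Mgst1 and Gstt1 were both about 2 log2 units lower (3.85-fold and 3.86-fold), followed by Sod3 (2.61-fold), Gsta4 and Gstm1 (each 2.38-fold) and Aox1 (2.36-fold). Nox4 was 2.92-fold higher, the only member higher by 1 log2 unit, and Gsto1 (1.79-fold), Prdx6 (1.71-fold), Gpx8 (1.60-fold), Nqo1 (1.52-fold) and Txnrd1 (1.47-fold) came next. Differences of at least 1 log2 unit were seen for 10.3% of all genes, and 28 of the 38 members did not overlap between genotypes (64.7% of all genes). Within slide 1 the counts were 11 higher and 13 lower, and within slide 2 they were 15 and 13. Quantile normalization gave 8 higher and 22 lower, against 31.5% and 35.8% of all genes, and all 15 lower genes and 8 of the 16 higher ones (Nqo1, Txnrd1, Prdx6, Gpx3, Gpx8, Gsto1, Taldo1 and Nox4) were called under both scalings. These values share the treated arrays with the TGF-β1 responses above and are not independent of them. In these treated cultures 13 of the 16 macrophage and leukocyte markers were lower in knockout cells and 1 was higher. Of 10 endothelial markers 8 were lower and 0 higher, of 6 mesothelial markers 5 and 1, and of 10 fibroblast markers 6 and 2. Of 9 pericyte and smooth muscle markers 3 were lower and 4 higher, and of 8 epithelial markers 2 and 1. The part of these cell types in the members' differences was not tested.

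**Figure D5:**
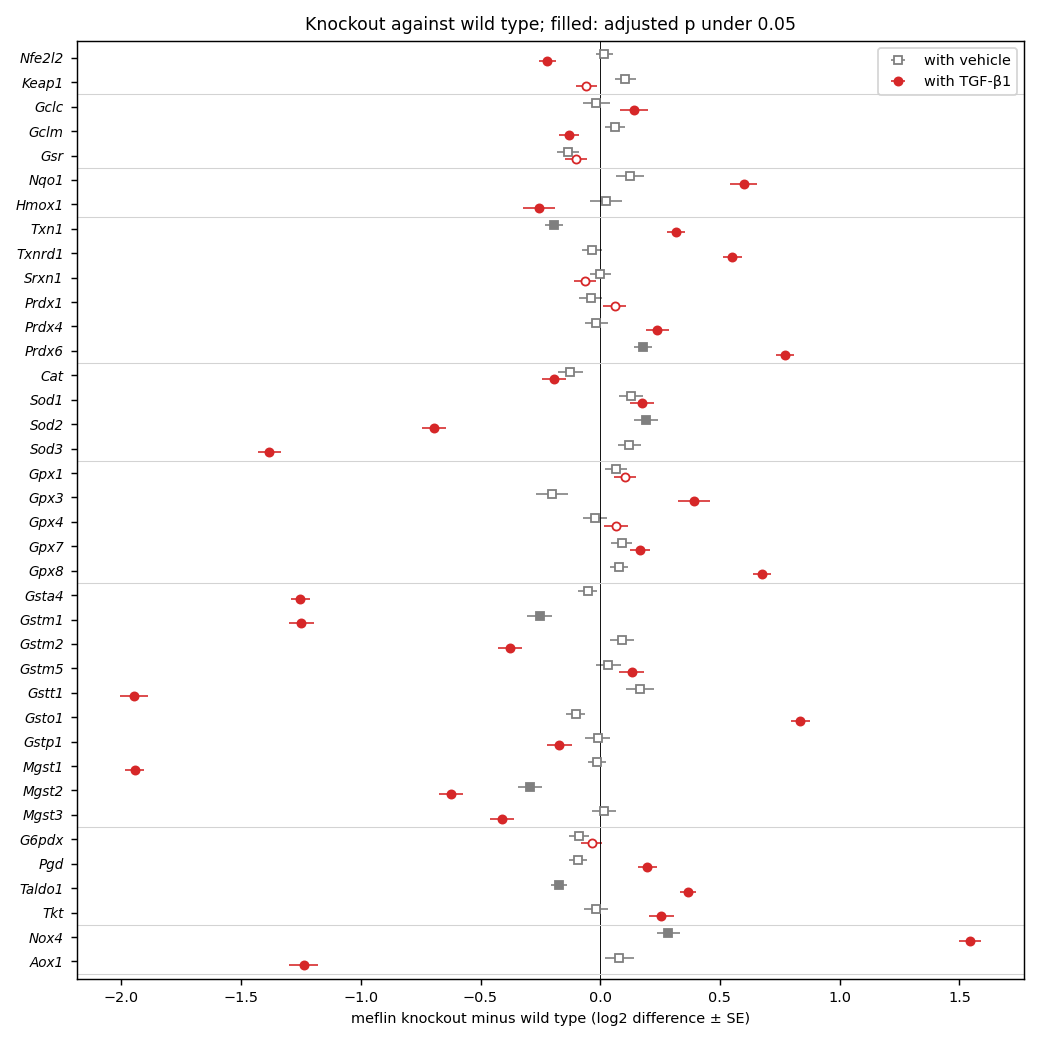
Knockout minus wild type (log2 difference with SE bars, horizontal axis) for each of the 38 members (vertical axis, by role), with vehicle (grey squares) and with TGF-β1 (red circles), filled where the adjusted p was under 0.05. With vehicle all members lie between -0.29 and 0.28; with TGF-β1 they run from -1.95 for Gstt1 to 1.54 for Nox4.

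The test of the difference between the 2 TGF-β1 responses placed numbers on this pattern. The response was more positive in knockout cells for 12 members and more negative for 14, and 12 were not called; among all genes 31.7% were more positive, 26.5% more negative and 58.2% either. Of the 14 negative ones, 7 were transferases, namely Gstt1, Mgst1, Gsta4, Gstm1, Gstm2, Mgst3 and Mgst2, and the others were Sod3, Sod2, Aox1, Hmox1, Nfe2l2, Gclm and Keap1. The positive ones were Nox4, Gsto1, Gpx8, Gpx3, Prdx6, Prdx4, Txnrd1, Txn1, Taldo1, Nqo1, Pgd and Tkt. Quantile normalization gave 9 positive and 18 negative, against 24.2% and 31.3% of all genes, and the 4 negative ones it added were Gpx1, Sod1, Srxn1 and Gstp1. An interaction of at least 1 log2 unit was called for 1 positive and 5 negative members and for 9.95% of all genes. All 14 negative interactions and 9 of the 12 positive ones were called under both scalings. Within slide 1 there were 9 positive and 11 negative calls, and within slide 2 there were 12 and 10.

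Other genes of the same pathways were read for context from a list of 105 that are not among the 38, of which 98 were tested. With TGF-β1 in wild type cells 49 were higher and 32 lower, and in knockout cells 49 were higher and 42 lower; quantile normalization gave 38 and 40, and 35 and 52. Among all genes 41.3% were higher and 27.3% lower in wild type cells, and 46.6% and 35.9% in knockout cells (35.0% and 32.2%, and 39.7% and 41.9%, with quantile normalization). In wild type cells the largest falls were those of the mu-class transferases Gstm3 (-1.85), Gstm4 (-1.31) and Gstm7 (-1.29), neighbours in family to Gstm1, and the largest rises those of Selenow (0.77), the thioredoxin inhibitor Txnip (0.77) and the NOX4 partner Poldip2 (0.76). In knockout cells the selenium carrier Selenop (-2.94), Gstm3 (-2.83) and Pir (-2.77) fell most, and Gstcd (1.31), the methionine sulfoxide reductase Msrb3 (1.24) and Selenom (1.14) rose most. Selenop, Pir and Gstm3 fell with TGF-β1 in both genotypes, and fell further in knockout cells, as Mgst1 and Gstm1 did. Probes of the mu-class genes may share signal, as said above, so Gstm3, Gstm4, Gstm7 and Gstm1 may not be separate readings.

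With vehicle, 8 of these 98 genes were higher and 9 lower in knockout cells, against 7.08% and 6.16% of all genes. The largest were Gpx2 (0.33), the epoxide hydrolase Ephx1 (0.23) and Gstz1 (0.17) on one side, and the glutathione-degrading Chac1 (-0.46), the phagocyte oxidase subunit Ncf1 (-0.45) and the cystine importer Slc7a11 (-0.38) on the other. With TGF-β1, 38 were higher and 39 lower, against 39.6% and 30.5% of all genes. Xanthine dehydrogenase (Xdh), another oxidant source related in sequence to Aox1, was lower (-2.59), as was Selenop (-2.02); Ggt5 was not well above background on any treated knockout array and was at least 1.05-fold lower. The small Maf proteins Mafk and Maff, binding partners of NRF2, were higher by 0.83 and 0.77, and Msrb3 by 0.72. The interaction was positive for 31 and negative for 35, against 31.7% and 26.5% of all genes. Slc7a11, which supplies glutathione synthesis, had the largest positive one: it fell by 1.28 in wild type cells and by 0.27 in knockout cells (interaction 1.01, SE 0.09, adjusted p = 3.5e-07). Mafk (0.88) and Maff (0.72) followed, and Xdh (-2.57), Selenop (-2.15) and Pir (-1.93) were the most negative. Not tested were Gpx6, Gsta2, Duox1 and Aox3, whose probes were too dim, and Gsta1, Nnt and Duox2, which had no named probe.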

How the data were processed

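The deposited scanner files hold, per the file headers, the background-subtracted intensity of each spot from the program Agilent Feature Extraction, version 11.0.1.1. The unit of this intensity was assumed to be linear. From 59305 spots per array that were not controls, none of them saturated, 27 probes with outlier marks were left out and spots of 1 probe were averaged as log2 values. Each of the 16 arrays was shifted to a common 75th percentile (unscaled 382 to 526). A probe was kept if some group had it well above background on each of its 4 arrays, and the brightest named probe stood for each of 15390 genes. Names came from transcript accessions matched to RefSeq (GRCm38.p6), which named 32975 of 56605 probes. Precision is limited by 4 arrays a group.

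The model was limma's (3.58.1, R 4.3.3): 1 coefficient per group, 5 contrasts, moderated by eBayes, 2-sided, Benjamini-Hochberg over all genes. The script was tested on simulated data. Genes were reported array by array where they differed by at least 1 log2 unit with adjusted p under 0.05 in a 2-group comparison or had 1 of the 6 largest interactions, and Nfe2l2, Keap1, Nqo1, Hmox1 and Nox4 always. Up to 3 other pathway genes per comparison and direction were named by size. The members and lists were chosen with earlier results of these data known. Alternatives were quantile normalization, normexp with offset 50, other filters, the mean of probes, slide or replicate number as a block, each slide alone, leaving out each array, and the authors' deposited value table in log2 units. That table holds 9933 probes and 14 of the 38 genes. It follows the log2 intensities (r at least 0.999), so higher is brighter and genes are not centred; its scaling and choice of probes stay unknown. Its column medians were 6.60 to 6.61 in wild type vehicle, 6.47 to 6.49 in wild type TGF-β1, 6.57 to 6.59 in knockout vehicle and 6.38 to 6.39 in knockout TGF-β1 arrays.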

Additional observations from a re-analysis of the deposited data

Results flagged for a closer look

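In 13 of 152 sets of 4 arrays (38 genes in 4 groups), 1 array lay far from its 3 replicates by Dixon's criterion, which chance gives in about 1 of 20 sets. In wild type cells with vehicle, Gclc in replicate 2 (11.05) lay below the others at 11.19 to 11.21, Pgd in replicate 2 (13.29) above 13.20 to 13.21, Tkt in replicate 2 (14.31) below 14.41 to 14.42, Gstm2 in replicate 4 (14.40) below 14.47 to 14.48, and Gstm5 in replicate 3 (12.96) above 12.87 to 12.88. With TGF-β1 in wild type cells, replicate 1 was high for Prdx1 (16.19) and low for Sod1 (15.07) and Sod3 (14.02), and replicate 4 was high for Gpx8 (13.62). In knockout cells, Gclm was low in vehicle replicate 1 (11.68), and TGF-β1 replicate 4 was high for Prdx1 (16.28), Prdx6 (16.35) and Gstm2 (13.87). These gaps were at most 0.16 log2 units and did not end any call of Prdx1, Prdx6, Sod3, Gpx8 or Gstm2 when the array was left out.

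For 26 genes the TGF-β1 response differed between genotypes by the interaction test (knockout minus wild type, log2). It was negative for Gstt1 (-2.11), Mgst1 (-1.93), Sod3 (-1.50), Aox1 (-1.32), Gsta4 (-1.20), Gstm1 (-0.995), Sod2 (-0.89), Gstm2 (-0.47), Mgst3 (-0.43), Mgst2 (-0.33), Hmox1 (-0.28), Nfe2l2 (-0.24), Gclm (-0.19) and Keap1 (-0.16). It was positive for Nox4 (1.26), Gsto1 (0.94), Gpx8 (0.60), Gpx3 (0.59), Prdx6 (0.59), Txnrd1 (0.59), Taldo1 (0.54), Txn1 (0.51), Nqo1 (0.48), Pgd (0.29), Tkt (0.27) and Prdx4 (0.26).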

How the results depend on the processing

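Of 126 calls of a member in a comparison, 8 were lost when some array was left out, none turned, and none of the 83 calls of at least 0.3 log2 units was lost. Leaving out 1 array gave 9 to 11 higher and 18 to 19 lower genes with TGF-β1 in wild type cells, 14 to 16 and 17 to 18 in knockout cells, 2 to 4 and 4 to 5 between genotypes with vehicle, 14 to 17 and 15 to 16 with TGF-β1, and 12 to 13 positive and 13 to 15 negative interactions. The calls lost were Keap1 in knockout cells (without knockout TGF-β1 replicates 1 or 2 or knockout vehicle replicates 1, 2 or 3) and its interaction (also without wild type TGF-β1 replicate 2 or wild type vehicle replicate 4), Taldo1 in wild type cells (wild type TGF-β1 replicates 1, 3 or 4, wild type vehicle replicates 3 or 4), Gstp1 there (wild type TGF-β1 replicate 3, adjusted p = 0.0506), Sod2 between genotypes with vehicle, Gclc between genotypes with TGF-β1 (knockout replicates 2, 3 or 4, wild type replicates 1, 2 or 3), and Gstm5 in knockout cells (TGF-β1 replicates 3 or 4, vehicle replicates 1 or 2) and between genotypes with TGF-β1 (knockout replicates 3 or 4, wild type replicates 1 or 2).

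Quantile normalization lowered the count of higher genes to 9 in knockout cells and to 8 between genotypes with TGF-β1. It reversed Txn1 (-0.28), Gstm5 (-0.21), Pgd (-0.21), Taldo1 (-0.10) and Tkt (-0.13) in knockout cells, and Sod1 (-0.071), Gstm5 (-0.069), Pgd (-0.020) and Tkt (-0.032) between genotypes with TGF-β1; these are bright genes, which that scaling moved down as a class. The authors' table holds 14 members and so could call fewer: 2 higher and 11 lower in wild type cells, 3 and 11 in knockout cells, 1 lower between genotypes with vehicle, 3 higher with TGF-β1 and 3 positive interactions. With vehicle, slide 1 alone called 0 higher and 0 lower genes and slide 2 alone 1 higher; over all comparisons slide 1 alone lost 27 of the 126 calls and slide 2 alone 13, and none turned. Fewer arrays entered those fits. Same-numbered replicates correlated in their deviations from -0.03 to 0.22 over 24 pairs, 8 of them over 0.1. These values do not decide whether the numbers pair samples. No label says that they do, and the main fit did not pair them. A replicate block kept all 126 calls and added 3, with 11 higher and 19 lower genes in wild type cells, 15 and 18 in knockout cells, 3 and 4 between genotypes with vehicle, 17 and 15 with TGF-β1, and 12 positive and 15 negative interactions; the slide as a block also kept all 126 and added 3. Normexp, other filters and the mean of probes changed no count of calls by 1.5 times. Normexp did shrink the differences of dim members. For the 4 members between 8 and 10 log2 units, the median TGF-β1 response went from -0.70 to -0.63 in wild type cells. In knockout cells it went from -1.44 to -1.16.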
